A study of Rosa hybrid cultivar with 12 samples.

Results

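Of 42307 genes listed for the rose bud, 4 were near silent without auxin and measurable with it at both sucrose doses. They are gene:RC0G0126400, gene:RC0G0180900, gene:RC4G0034800 and gene:RC6G0499500. Levels are in CPM, counts scaled to a common library total, with library sizes adjusted by the TMM method. A gene was taken when its group mean was at most 0.5 CPM in both groups without auxin and at least 1.5 CPM in both groups with auxin. The genes were thus chosen by their group means with and without auxin, so those levels are a description and were not tested.

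The 12 libraries are messenger RNA from wild-type buds of a hybrid rose cultivar, labelled flower bud, while the series title concerns budburst. Sucrose was given at 100 mM or 10 mM, either together with 1 µM NAA or without it, with 3 libraries for each of the 4 treatments. NAA is a synthetic auxin, and the labels name no agent besides it and sucrose, which all groups received. Each group held 1 library harvested on the 20 of June, August and October. The labels do not give the age of the plants, nor how many buds or plants went into a library. Because the files pair no ID with a gene name, the labelled tissue could not be checked against marker genes, and no function is given for any gene here.

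Auxin is a plant hormone made in the shoot tip, and its flow down the stem holds back the outgrowth of side buds, while sugar supply promotes it. Inside a cell, auxin binds receptors of the TIR1/AFB family, repressor proteins of the Aux/IAA family are then degraded, and transcription factors called ARFs are set free to act on their target genes. Many early auxin-response genes are held at a low level until auxin arrives.

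Gene counts ran from 7369267 to 16757019 per library, so that 1 count was worth between 0.0588 and 0.182 CPM. The June library of 10 mM sucrose with NAA stood apart from the other 11. It was the shallowest, its 100 most counted genes held 24.9% of its counts, against 14.1% to 16.9% elsewhere, and its TMM factor was 0.746. Values in which it weighs most are given with and without it. The TMM factors of the other libraries lay between 0.999 and 1.10.

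The thresholds left few genes. Without auxin, 17442 genes were at or under 0.5 CPM at both doses. Of those, 10 reached a mean of 1.5 CPM with NAA at 100 mM sucrose and 41 did so at 10 mM, and 4 did at both. Without the June library of 10 mM with NAA, 24 did so at 10 mM. The opposite pattern, at most 0.5 CPM with NAA and at least 1.5 CPM without it at both doses, was met by 2 genes. With the factors exchanged, 2 genes were on at 100 mM and off at 10 mM sucrose both with and without NAA, and 0 were off at 100 mM and on at 10 mM. No test was made of these counts.

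The genes just outside the set lay close to it. The nearest to the lower threshold were gene:RC4G0288400, whose higher mean without NAA was 0.511 CPM, and gene:RC5G0563800, at 0.514 CPM. Those nearest to the upper threshold were gene:RC1G0189800, whose lower mean with NAA was 1.32 CPM, and gene:RC4G0114700, at 1.23 CPM. Inside the set, gene:RC0G0126400 was nearest to the lower threshold at 0.407 CPM and gene:RC0G0180900 nearest to the upper one at 2.16 CPM. With the lower threshold at 1 CPM in place of 0.5, 51 genes met the rule.

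**Figure D1:**
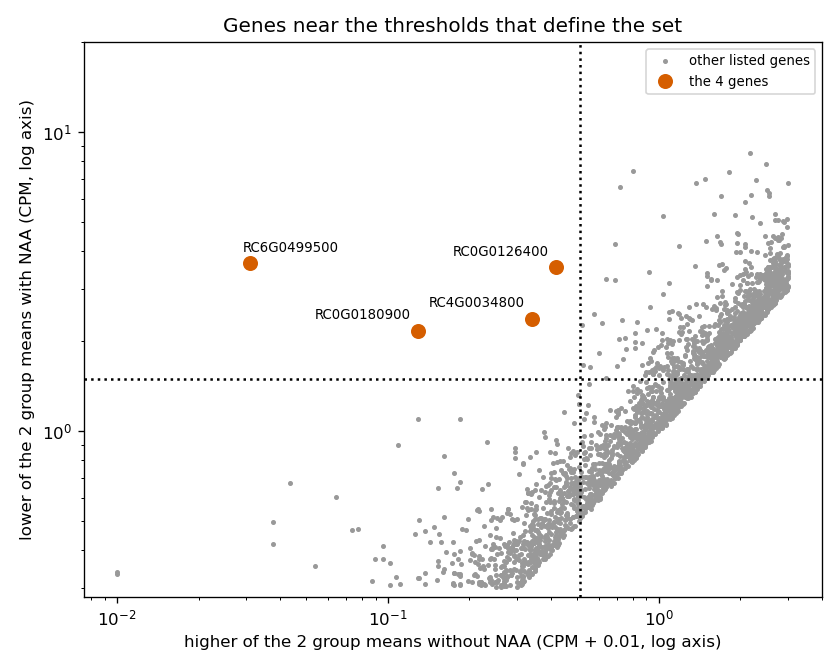
Each point is a listed gene, placed by the higher of its group means without NAA (x, CPM + 0.01) and the lower of its group means with NAA (y, CPM), both on log axes, for genes with x values up to 3 CPM, y values from 0.3 CPM and y above x. The 4 genes of the set (large points) fill the upper left corner between the dotted thresholds of 0.5 and 1.5 CPM, with gene:RC6G0499500 farthest to the left at 0.0209 CPM.

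The emptiest of the 4 without auxin was gene:RC6G0499500. At 100 mM sucrose it had 49, 81 and 11 counts with NAA in the June, August and October libraries, or 5.03, 5.20 and 0.719 CPM, against 0 counts in each of the 3 libraries without NAA. A count of 0 over that group allows a level of up to 0.101 CPM (3 counts), against which the level with NAA was at least 34.3-fold higher. The 95% exact interval of the ratio, which also covers the counting error of the libraries with NAA, starts at 27.5. At 10 mM it had 59, 29 and 30 counts with NAA, or 10.7, 1.70 and 2.04 CPM, against 0, 0 and 1 count without NAA. After adjustment for library size, these sums stood in a ratio of 130.0 (95% exact interval 22.9 to 5178). Without the June library of 10 mM with NAA the ratio was 76.3 (95% exact interval 13.2 to 3063). Such intervals cover counting error only and not the spread between libraries. The libraries with and without NAA did not overlap at either dose.

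The widest spread with auxin was that of gene:RC0G0126400. At 100 mM sucrose it stood at 5.33, 4.56 and 0.719 CPM with NAA in June, August and October, against 0.650, 0.332 and 0.239 CPM without NAA. At 10 mM it stood at 56.4, 5.47 and 2.11 CPM with NAA, against 0.606, 0.132 and 0.125 CPM without NAA. The groups did not overlap at either dose, but at 100 mM the lowest library with NAA was only just above the highest without it. The group sums differed 8.15-fold at 100 mM (95% exact interval 4.51 to 16.2) and 47.8-fold at 10 mM (25.8 to 100.4). The June library of 10 mM with NAA held 310 of the 434 counts of its group, and 75.6% of the CPM summed over the 6 libraries with NAA. Without that library the ratio at 10 mM was 16.0 (95% exact interval 8.43 to 34.3) and the group mean 3.79 CPM (n = 2).

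The other gene whose ID begins with RC0G was gene:RC0G0180900. It had 4.82, 1.48 and 0.196 CPM with NAA at 100 mM sucrose in June, August and October, against 0.108, 0.249 and 0 CPM without NAA. At 10 mM it had 12.2, 5.76 and 3.19 CPM with NAA, against 0, 0.264 and 0.0627 CPM without NAA. At 100 mM the groups overlapped, since the October library with NAA, with 3 counts, lay below the August library without it, also with 3 counts. They did not overlap at 10 mM. The group sums differed 13.3-fold at 100 mM (95% exact interval 4.98 to 50.2) and 46.7-fold at 10 mM (19.7 to 145.4), or 37.5-fold without the June library of 10 mM with NAA (15.7 to 117.2).

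The most even of the 4 was gene:RC4G0034800. At 100 mM sucrose it stood at 4.10, 1.86 and 1.18 CPM with NAA in June, August and October, against 0.217, 0.0830 and 0.239 CPM without NAA. At 10 mM it stood at 4.55, 3.11 and 1.63 CPM with NAA, against 0.404, 0.461 and 0.125 CPM without NAA. No library with NAA lay as low as any without it, at either dose. The group sums differed 12.7-fold at 100 mM (95% exact interval 5.24 to 40.1) and 8.64-fold at 10 mM (4.84 to 16.8), or 7.66-fold without the June library of 10 mM with NAA (4.22 to 15.03). No library held more than 27.7% of its CPM summed over the 6 libraries with NAA.

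Without overlap between libraries with and without NAA were 3 of the 4 genes at 100 mM sucrose and 4 of 4 at 10 mM. Over the 24267 tested genes, all libraries with NAA lay above all without it for 14.3% at 100 mM and 16.6% at 10 mM. The rule used this contrast, so nothing is read from the share. Compared within each dose and harvest date, the library with NAA was above its partner without it in 24 of 24 pairs of the 4 genes. Of the 24 values without NAA, 7 were 0 counts, and 2 were above 0.5 CPM, both of gene:RC0G0126400 in June. In bulk libraries, more cells expressing a gene and more RNA per cell cannot be told apart.

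**Figure D2:**
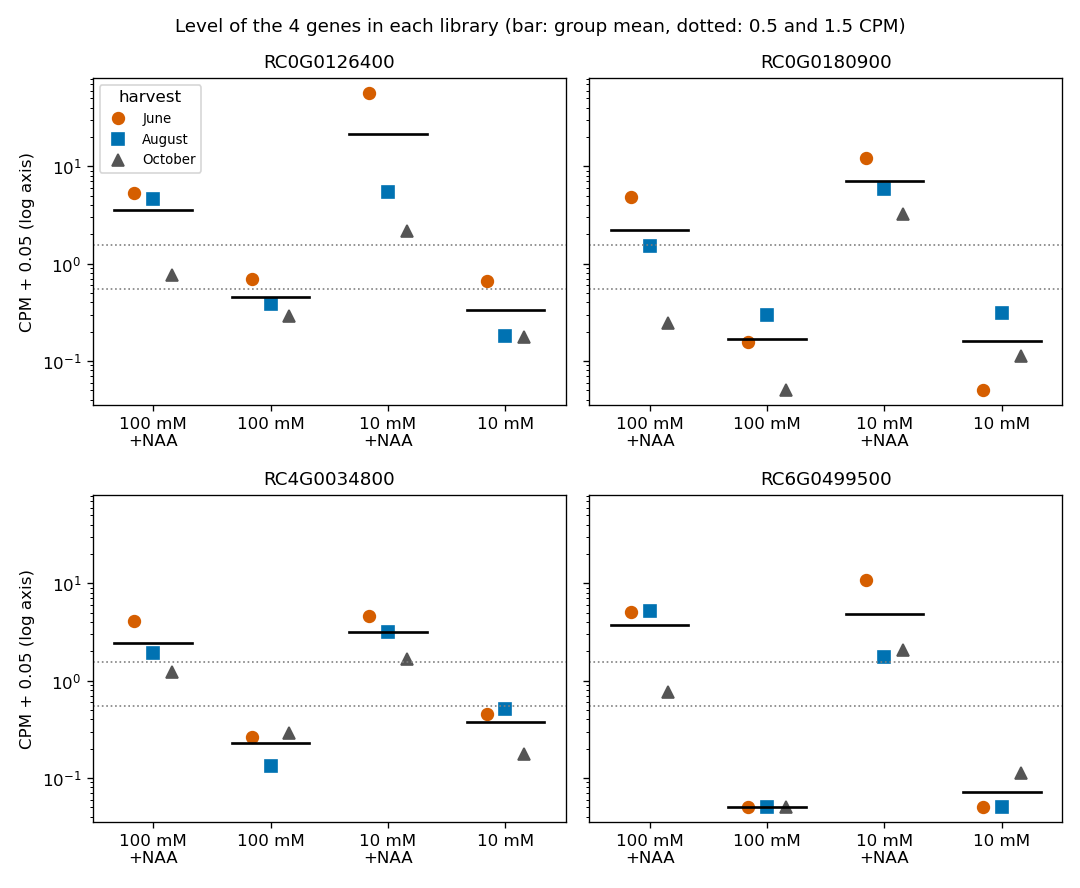
Level of each gene (CPM + 0.05, log axis) in each library, by treatment, with harvest dates as symbols, group means as bars and the thresholds of 0.5 and 1.5 CPM as dotted lines. Every group with NAA has its mean above 1.5 CPM, while the October libraries of 100 mM with NAA lie below it, between 0.196 and 1.18 CPM.

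The order of the group means was the same in all 4 genes at its upper end. By the rule, both groups with NAA had higher means than both without it, so only the order of the doses was free. Each had its highest mean at 10 mM sucrose with NAA and its next at 100 mM with NAA. The means of these groups were 3.54 ± 2.47 CPM at 100 mM and 21.3 ± 30.4 CPM at 10 mM for gene:RC0G0126400 (SD, n = 3 each). They were 2.16 ± 2.39 CPM at 100 mM and 7.05 ± 4.63 CPM at 10 mM for gene:RC0G0180900 (SD, n = 3 each). For gene:RC4G0034800 they were 2.38 ± 1.53 CPM at 100 mM and 3.10 ± 1.46 CPM at 10 mM, and for gene:RC6G0499500 3.65 ± 2.54 CPM at 100 mM and 4.82 ± 5.12 CPM at 10 mM (SD, n = 3 each). In each gene these neighbours in the order differed by no more than the larger of their SDs, except gene:RC0G0180900, whose means differed by just over it. Without the June library of 10 mM with NAA, the 10 mM means were 3.79, 4.48, 2.37 and 1.87 CPM in the same gene order (n = 2). Then gene:RC4G0034800 and gene:RC6G0499500 were lower at 10 than at 100 mM, but the means at 100 mM kept their June library. In August and October gene:RC4G0034800 was higher at 10 mM, at 3.11 and 1.63 CPM against 1.86 and 1.18 CPM at 100 mM. On the same dates gene:RC6G0499500 was at 1.70 and 2.04 CPM at 10 mM and 5.20 and 0.719 CPM at 100 mM. Without NAA, the means at 100 and 10 mM differed by less than the larger SD in each of the 4 genes. CPM is not scaled by gene length, so levels are not compared between genes.

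Summed over the 4 genes, the level was 11.7 ± 8.32 CPM at 100 mM sucrose with NAA and 0.706 ± 0.251 CPM at 100 mM alone (SD, n = 3 each). It was 36.3 ± 41.3 CPM at 10 mM with NAA, where the June library alone had 83.8 CPM, and 0.748 ± 0.331 CPM at 10 mM alone (SD, n = 3 each). Without that June library the mean summed level at 10 mM with NAA was 12.5 CPM (n = 2), while the mean at 100 mM keeps its June library. In August and October the summed level with NAA was 16.0 and 8.97 CPM at 10 mM, against 13.1 and 2.81 CPM at 100 mM.

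The rule set the same floor of 1.5 CPM for both doses with auxin and did not use the difference between them. That floor removed genes that were on at 1 dose only, so it limits how large a difference the 4 genes can show, and the test describes genes that passed it. Of the 4 genes, 0 were called in the edgeR quasi-likelihood test of 100 against 10 mM sucrose with NAA, at a Benjamini-Hochberg adjusted p under 0.05. At an unadjusted p under 0.05 there were 2, gene:RC0G0126400 and gene:RC0G0180900. Over all tested genes, this test called 2.02% higher and 2.12% lower at 100 mM. The log2 fold change of 100 over 10 mM was -2.55 for gene:RC0G0126400 (SE 1.01, 95% interval -4.74 to -0.35, edgeR adjusted p = 0.152) and -1.71 for gene:RC0G0180900 (SE 0.775, -3.40 to -0.03, adjusted p = 0.203). It was -0.35 for gene:RC4G0034800 (95% interval -1.43 to 0.73, edgeR adjusted p = 0.715) and -0.26 for gene:RC6G0499500 (-2.04 to 1.51, adjusted p = 0.879). These intervals include changes of more than 2-fold in either direction for gene:RC6G0499500, so an equal level at both doses is not shown.

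Libraries of the same number share a harvest date, and with the replicate number as a block both genes with the larger differences were called. In that edgeR fit gene:RC0G0180900 was lower at 100 mM by a log2 fold change of -1.99 (SE 0.449, adjusted p = 0.015) and gene:RC0G0126400 by -1.80 (SE 0.509, adjusted p = 0.0367). The block called 7.69% of all tested genes lower at 100 mM. The fall of gene:RC0G0126400 rested on the June library of 10 mM with NAA, without which the blocked edgeR value was -0.73 (adjusted p = 0.175), and the unblocked one -0.12 (adjusted p = 0.937). For gene:RC0G0180900 the blocked edgeR value without that library was -2.23 (adjusted p = 0.0194). With the block, the call of gene:RC0G0180900 was lost without the August or October library of 100 mM with NAA (edgeR adjusted p = 0.0905 and 0.0795), and that of gene:RC0G0126400 also without the June or October library of 100 mM with NAA or the October library of 10 mM with NAA (0.241, 0.13 and 0.0537). The other 2 genes were not called with the block (edgeR adjusted p = 0.332 and 0.851).

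Within harvest dates, the level with NAA was lower at 100 than at 10 mM in 11 of 12 comparisons of the 4 genes, against 49.4% of such comparisons over all tested genes. It was lower on all 3 dates in 3 of the 4 genes, as it was in 24.2% of tested genes. The exception was gene:RC6G0499500 in August, at 5.20 CPM at 100 mM and 1.70 CPM at 10 mM. With 1 library per treatment and date, the 4 genes of a date share the same libraries and are not separate evidence. The June comparisons use the 10 mM library that stood apart. In August and October alone, the level was lower at 100 mM apart from the same exception. Without auxin, the means at both doses lay under the lower threshold by the rule, and the sucrose difference was not tested there. The counts over 3 libraries were 12 at 100 mM and 10 at 10 mM for gene:RC0G0126400, 4 and 5 for gene:RC0G0180900, 5 and 13 for gene:RC4G0034800, and 0 and 1 for gene:RC6G0499500.

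With auxin, 3 of the 4 genes shared an order over the harvest dates. Of the 8 pairs of gene and dose with NAA, 7 had their lowest library in October and 7 their highest in June. Both exceptions were gene:RC6G0499500, with its lowest value in August at 10 mM and its highest in August at 100 mM. The pairs of a dose share the same libraries and are not separate evidence, and at 10 mM June is the library that stood apart. A level of 1.5 CPM, which the rule asked of the group means, was reached by 8 of 8 pairs in June, 7 in August and 4 in October. The 4 in October were all at 10 mM, at 1.63 to 3.19 CPM, and at 100 mM the October library held the genes at 0.196 to 1.18 CPM. October was lowest at both doses in 3 of 4 genes, and the same 3 declined from June over August to October at both doses. Over tested genes the shares were 15.9% for the first and 5.23% for the second. One of the 3 genes, gene:RC0G0180900, had a mean of 1.5 CPM or more at 100 mM only with its June library. Its high June value is part of what chose it, so its order is not set against these shares. The other 3 of the 4 genes met the rule without the June libraries. For gene:RC4G0034800 this was narrow at 100 mM, where August and October had 1.86 and 1.18 CPM for a required mean of 1.5 CPM. Its June value thus also helped it to pass, and its order is not set against these shares either. Of the 3 genes with this order, only gene:RC0G0126400 can be set beside them.

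**Figure D3:**
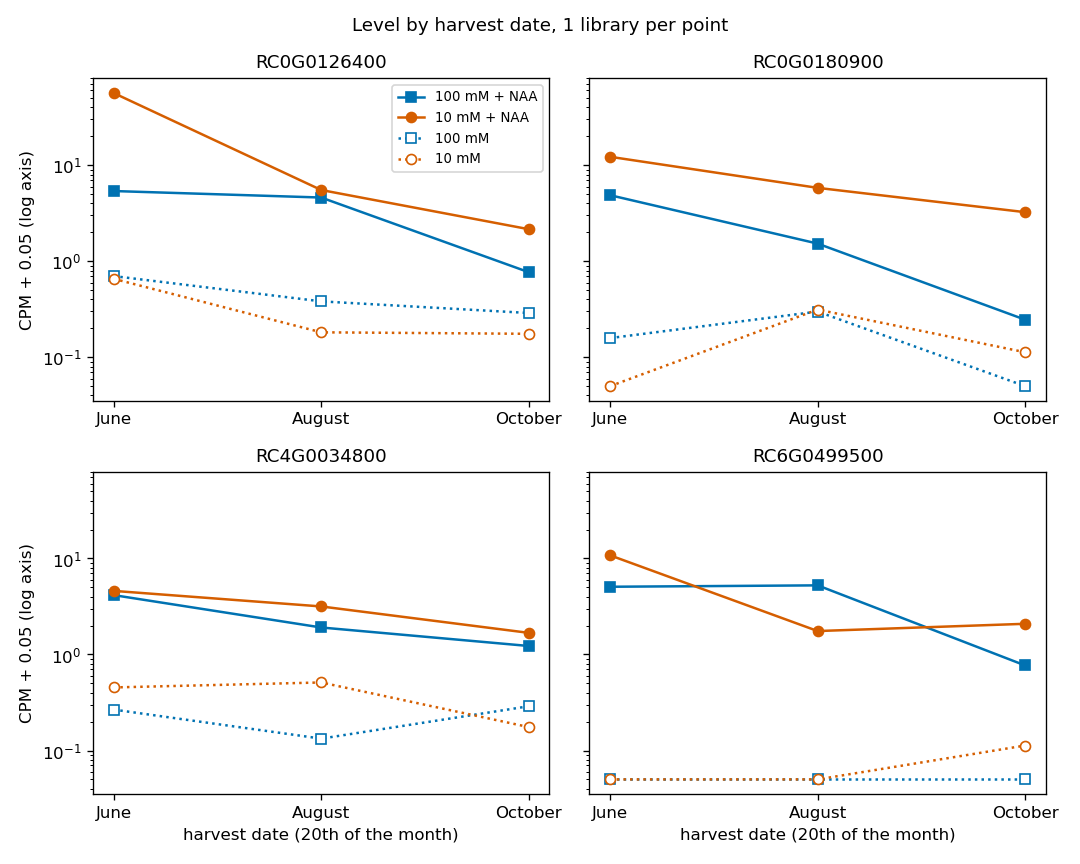
Level of each gene (CPM + 0.05, log axis) on the 3 harvest dates, 1 library per point, with NAA as solid lines and without it as dotted lines. The solid lines run down toward October in 3 of the 4 genes at both doses, while gene:RC6G0499500 stays near 5 CPM from June to August at 100 mM and drops to 0.719 CPM in October.

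In the edgeR quasi-likelihood F test of harvest date, with group as the other term, 3 of the 4 genes were called. All 3 were lower in October than in June. These were gene:RC0G0126400 (edgeR adjusted p = 0.0124), gene:RC0G0180900 (0.0442) and gene:RC4G0034800 (0.0443). The call of gene:RC0G0180900 is not independent of the rule, for the reason given above, and nothing is read from it. That of gene:RC4G0034800 is not free of the rule either, since its June value helped it to pass. It is therefore not set against the background. As a background for gene:RC0G0126400 and gene:RC6G0499500, 5.91% of all tested genes were called, and 3.46% were called with October below June. For gene:RC6G0499500 the edgeR adjusted p was 0.122. The log2 fold change of October over June was -3.83 for gene:RC0G0126400 (SE 0.603, 95% interval -5.15 to -2.51), -2.50 for gene:RC0G0180900 (SE 0.534, -3.67 to -1.33) and -1.56 for gene:RC4G0034800 (SE 0.331, -2.29 to -0.83). It was -2.40 for gene:RC6G0499500 (SE 0.675, -3.92 to -0.87). August lay between them in the fit for all 4, at log2 fold changes over June of -1.89, -1.09, -0.74 and -1.10 in the same order of genes.

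The direction held in each of the 18 alternatives tried, but the calls did not. Leaving out 1 library at a time gave October over June between -4.50 and -2.40 for gene:RC0G0126400, between -3.91 and -1.95 for gene:RC0G0180900, between -1.67 and -1.29 for gene:RC4G0034800 and between -3.29 and -1.57 for gene:RC6G0499500. Without the June library of 10 mM with NAA, the edgeR adjusted p was 0.0555 for both gene:RC0G0180900 and gene:RC4G0034800. Without the October library of 100 mM with NAA, or that of 10 mM with NAA, 0 of the 4 genes were called. The call of gene:RC0G0126400 was lost without either of these, that of gene:RC0G0180900 without any 1 of 9 libraries (edgeR adjusted p = 0.0515 to 0.171) and that of gene:RC4G0034800 without any 1 of 10 (0.0555 to 0.197). The edgeR adjusted p of the 3 called genes was 0.0622 to 0.152 without the October library of 10 mM and 0.0626 to 0.197 without that of 100 mM. In contrast, gene:RC6G0499500 was called without the August library of 100 mM with NAA or that of 10 mM with NAA (edgeR adjusted p = 0.0295 and 0.0297). From the 6 libraries with NAA alone, the edgeR test called 0 of the 4 (adjusted p = 0.0913 to 0.103 for the 3 genes). From these libraries without the June one of 10 mM, an alternative chosen after seeing the data, it called the 3 genes (edgeR adjusted p = 0.00932 for gene:RC0G0126400, 0.00961 for gene:RC0G0180900 and 0.0322 for gene:RC4G0034800). That fit had 5 libraries and 1 residual degree of freedom. The planting dates in the labels differ between treatments in the June set and fall after harvest in several libraries, so June cannot be told apart from those dates if they are right.

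**Figure D4:**
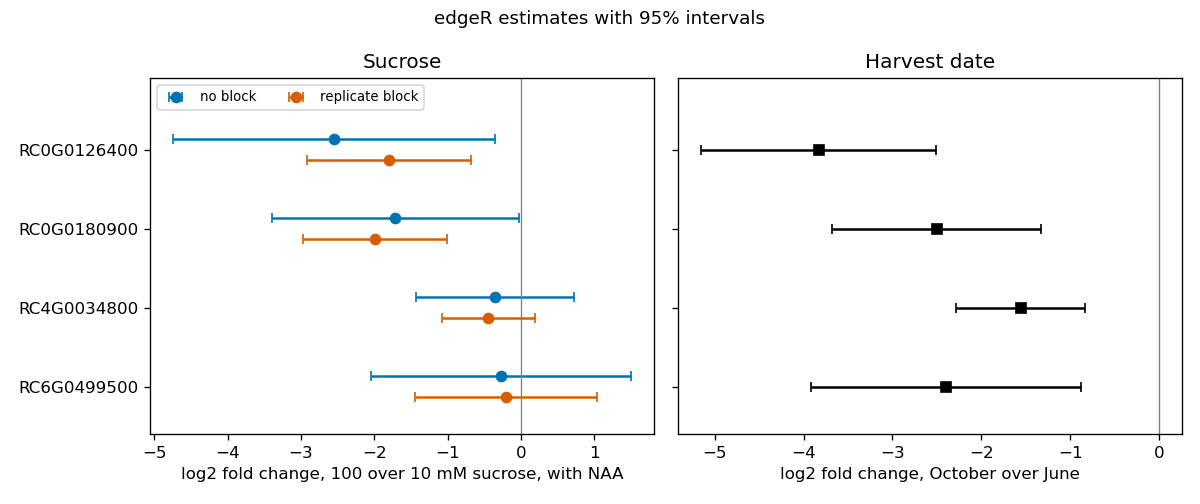
edgeR log2 fold changes with 95% intervals for 100 over 10 mM sucrose with NAA (left, without and with the replicate block) and for October over June (right). On the left gene:RC0G0126400 and gene:RC0G0180900 lie lowest at -2.55 and -1.71 without the block, and on the right all 4 intervals lie below 0. The intervals are not adjusted for the number of genes tested. For harvest date gene:RC6G0499500 was not called (edgeR F test, adjusted p = 0.122). The June values of gene:RC0G0180900 and gene:RC4G0034800 helped these genes to pass the rule.

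Whether the effect of auxin itself differed between dates was tested with auxin by date terms, a test added after the levels had been seen. The edgeR quasi-likelihood F test called 0 of the 24267 tested genes, or 0% as a background, and the adjusted p was at least 0.611 throughout. Before adjustment, 1189 had a p under 0.05. For the 4 genes the edgeR adjusted p was 0.932 to 0.959. The auxin effect in October less that in June was -2.30 on the log2 scale for gene:RC0G0126400 (SE 1.89, 95% interval -6.55 to 1.95), and the intervals of the other 3 genes also included 0. With so few counts without NAA, a decline confined to treated buds could not be told from one in all buds. Without NAA, gene:RC0G0126400 also had its highest library in June at both doses, at 0.650 CPM at 100 mM and 0.606 CPM at 10 mM. The other 3 genes did not. Without NAA, gene:RC0G0180900 was highest in August at both doses, at 0.249 CPM at 100 mM and 0.264 CPM at 10 mM. The highest value of gene:RC4G0034800 was in October at 100 mM (0.239 CPM) and in August at 10 mM (0.461 CPM). The only count of gene:RC6G0499500 was in October at 10 mM.

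The rule was also applied to 2 harvest dates, and levels were read in the date left out. The thresholds were chosen with earlier results of these data known, so the date left out is not an independent reading. From August and October the rule took 4 genes, 3 of them in the set, since gene:RC0G0180900 was missed and gene:RC7G0498100 taken. In June all 4 of these were higher with NAA at both doses, and 2 met every threshold. From June and October it took 6 genes, the 4 of the set among them. In August all 6 were higher with NAA at both doses, and 3 met every threshold. From June and August it took 8 genes, again with the 4 of the set. In October 7 were higher with NAA at 100 mM and 8 at 10 mM, but 0 of 8 met every threshold, and only 1 reached 1.5 CPM at 100 mM with NAA. With 1 library per treatment and date, these counts carry no test.

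Each gene was also set beside the tested gene with the most similar course over the 12 libraries, a measure chosen after the values were seen. Likeness was the mean absolute difference of log2(CPM + 0.5) after each gene was centred on its own mean, so that genes of higher level could match. For gene:RC6G0499500 the closest was gene:RC6G0499700 at 0.32 on the log2 scale, 2 rows below it in the gene list. That gene averaged 35.7 CPM with NAA and 4.31 CPM without it at 100 mM, and 81.7 CPM with NAA and 4.91 CPM without it at 10 mM (n = 3 each). The closest to gene:RC0G0126400 was gene:RC1G0463000 at 0.40, which also peaked in the June library of 10 mM with NAA, at 327.7 CPM. The closest to gene:RC0G0180900 was gene:RC0G0004200 at 0.35, and the closest to gene:RC4G0034800 was gene:RC3G0219100 at 0.24, with 1.10 CPM with NAA and 0.119 CPM without it at 100 mM and 1.83 CPM with NAA and 0.111 CPM without it at 10 mM (n = 3 each). Within the set, gene:RC6G0499500 and gene:RC0G0180900 were closest to each other, at 0.51. Tested genes outside the set were closer. Among tested genes, the nearest gene of the set held place 7 for gene:RC0G0126400 and 10 for gene:RC0G0180900. It held place 4 for gene:RC6G0499500 and 369 for gene:RC4G0034800.

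The rows beside the 4 genes in the list could be compared only where they had enough counts. All of those except gene:RC0G0180800 were higher with NAA at both doses, but none was near silent without it. No share over all tested genes is given beside this, so nothing is read from it. Of the 8 adjacent rows, 4 passed the filter on low counts. Among these, gene:RC4G0034700, the row before gene:RC4G0034800, had a mean of 16.0 CPM with NAA and 2.88 CPM without it at 100 mM, and 20.6 CPM with NAA and 4.74 CPM without it at 10 mM (n = 3 each). The row before gene:RC0G0180900, gene:RC0G0180800, was lower with NAA at both doses, at 66.1 CPM with NAA and 99.6 CPM without it at 100 mM and at 44.9 CPM with NAA and 91.2 CPM without it at 10 mM (n = 3 each). The other 2 tested rows were higher with NAA by 1.34- to 2.10-fold over both doses, and the 4 untested ones had 0 to 37 counts over the 12 libraries. The files give no coordinates, so whether neighbouring rows are neighbouring genes was not tested.

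All reads of the 4 genes lay on 1 strand. The forward-strand column held 0 counts for each of them in each of the 12 libraries, and the strand-ignored column equalled the reverse-strand column for every one of these values. Over all genes, forward-strand counts made up 3.37% to 5.00% of forward and reverse counts together. Multimapping reads were not assigned to genes, so the level of a gene with a near-identical copy would be understated.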

How the data were processed

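The authors deposited 1 file of raw counts per library, not normalised, with columns for strand ignored, forward and reverse per the file headers. Per the labels, polyA selection and a stranded, paired-end kit were used. TopHat2 and Bowtie2 are named in the submitters' processing notes without a role, while the summary rows have STAR's layout. For build, annotation and settings: not given in the sources used here. Results use the reverse column. The 4 summary rows, 17.3% to 23.2% of reads, were left out.

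CPM used TMM library sizes over all listed genes. Tests ran in R 4.3.3 with edgeR 4.0.16 on the 24267 genes kept by filterByExpr (minimum count 10, minimum total 15), all 12 libraries, 1 mean per group, with Benjamini-Hochberg adjustment over all tested genes. The date test added harvest date to that model, which is also the fit with the replicate block. DESeq2 1.42.0 was an alternative. The scripts were tested on simulated data. Pairing comes from the harvest dates in the labels. Deviations from group means of same-number libraries correlated at 0.0647 to 0.592 (mean r = 0.298, 18 pairs). No libraries of a group agreed within sampling noise (chi-square per degree of freedom of at least 7.12). The labels do not say whether libraries came from separate plants, so p-values measure the spread between these samples.

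All 4 genes are named. Others named are the 2 nearest each threshold and, chosen after their values were seen, those of most similar course, those in adjacent rows and 1 taken with a date left out. Genes and thresholds were chosen with earlier results of these data known.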

Additional observations from a re-analysis of the deposited data

How the results depend on the processing

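The set of 4 genes was the same 4 with DESeq2 size factors, with raw totals and without the June library of 10 mM sucrose with NAA. Leaving out 1 library at a time gave 4 to 6 genes, and gene:RC0G0180900 dropped out without the June library of 100 mM with NAA. The count was 8 without the October libraries, 51 with a lower threshold of 1 CPM, 1 (gene:RC6G0499500) with thresholds of 0.25 and 3 CPM, and 0 when every library had to be on its side.

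For sucrose with NAA, 0 genes of the set were called by DESeq2, with its size factors, without the filter on low counts, from both auxin groups alone or from the strand-ignored column. It was 2 with the replicate block and 2 by DESeq2 with the block, and 0 to 1 with 1 library left out without the block (gene:RC0G0126400 without the October library of 10 mM with NAA, gene:RC0G0180900 without the June library of 100 mM with NAA). With the block and 1 auxin library left out it was 0 to 2. The sign was reversed for gene:RC6G0499500 without the June library of 10 mM with NAA (0.96, and 0.42 with the block), without the October library of 100 mM with NAA (0.28, and 0.30 with the block), without the June libraries (0.69), and with the block without the October library of 10 mM with NAA (0.20) or the June library of 100 mM with NAA (0.33). It was reversed for gene:RC4G0034800 without the October library of 100 mM with NAA (0.015). With 1 library left out without the block, the log2 value ran from -0.72 to 0.96 for gene:RC6G0499500 and from -0.95 to 0.015 for gene:RC4G0034800. The causes were not tested.

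For harvest date, 3 genes of the set were called with DESeq2, its size factors, no filter or the strand-ignored column. It was 0 from both auxin groups alone, 3 from these without the June library of 10 mM, and 0 to 3 with 1 library left out.

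Over the whole table, sucrose with NAA gave 1005 calls and 3559 with the replicate block, 2488 by DESeq2, 4069 by DESeq2 with the block, 1 from both auxin groups alone and 30 to 2491 with 1 library left out. Without the June, August and October libraries it gave 2, 0 and 285. Harvest date gave 1433, 2740 by DESeq2, 126 from both auxin groups alone, 3008 from the auxin libraries without the June library of 10 mM, and 249 to 2638 with 1 library left out. Alternatives with the block and a library left out, with harvest dates left out of the sucrose test, and with 5 auxin libraries were chosen after seeing the data. Between 43 and 461 counts of the set per library with NAA, and 4 to 13 without, limit the precision.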
